A study of Mus musculus with 12 samples.

Results

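The heat shock chaperones described here are 10 mouse genes fixed by symbol: Hsf1, Hspa1b, Hspa8, Hsp90aa1, Hsp90ab1, Hsph1, Dnajb1, Hspb1, Hspd1 and Hspe1. A gene was read through each probe set, the group of array probes summarized as 1 value, whose platform annotation named that gene alone. On this rule 7 of the 10 genes were measured, by 14 probe sets, out of 19937 genes with such a probe set on the array. Hspa8 and Hsp90aa1 had 3 probe sets each, Hspb1, Hspd1 and Hspe1 had 2 each, and Hsph1 and Dnajb1 had 1 each. Hsf1 and Hsp90ab1 were not analysed here, and Hspa1b was read only by a probe set that it shares with Hspa1a. Liver RNA came from 12 male mice of the C57BL6/JJmsSlc strain, at 4 weeks of age in the sample records and at a younger age in the article. The 4 groups of 3 mice were Atf7-/- mice conceived by in vitro fertilization (IVF), Atf7-/- mice conceived by natural mating, wild-type (WT) mice conceived by IVF and WT mice conceived by natural mating. The Atf7-/- mice lacked ATF7 in every tissue from conception and descended from Atf7-/- parents, and the WT mice from WT parents. IVF embryos were carried by ICR recipients and naturally conceived pups by mothers of their own genotype, so the procedure and the carrying dam cannot be told apart. Among naturally conceived mice, the genotype of the pup and that of its mother cannot be told apart either. The comparison called ATF7 loss in natural mating below covers both. The mice of a group had different mothers or recipients and are separate animals.

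Heat shock proteins are chaperones that help other proteins fold, keep damaged proteins soluble or pass them on for degradation. Under heat, oxidants or other proteotoxic stress, the transcription factor HSF1 is released from chaperones, binds heat shock elements in the promoters of these genes and raises their transcription. In unstressed liver, an organ that exports large amounts of protein, several of these chaperones are still made at high levels. ATF7 is a stress-responsive transcription factor that silences target genes through histone H3K9 methyltransferases until stress kinases release it. The study asked whether IVF leaves lasting changes of liver gene expression and what part ATF7 has in them.

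A heat shock element is a run of alternating GAA and TTC units, each separated from the next by 2 bases. RefSeq promoter windows, from 250 bases before to 50 bases after a gene start on GRCm38.p6, were searched for a 3-unit element (GAANNTTCNNGAA or TTCNNGAANNTTC) and for a 2-unit element (GAANNTTC or TTCNNGAA), which also lies inside every 3-unit match. Each pair of spellings covers both strands. A window was given for 6 of the 10 genes, and a 3-unit match was found for Hspe1, Hspd1 and Hsph1. Of 32851 windows of all genes, 0.603% held a 3-unit match and 15.1% held a 2-unit match. Hspb1 and Hspa1b had 2-unit matches alone, 2 for Hspb1 and 1 for Hspa1b, and Dnajb1 had neither in both of its windows. The 3 windows below are shown because they belong to both genes that passed the test in a group comparison, Hspe1 and Hspb1, and to Hsph1, a classic heat-induced gene with a 3-unit match that did not pass. Capitals mark the GAA and TTC letters of the matches. The Hspe1 window lies at chr1:55087898-55088197 on the plus strand, that of Hspb1 at chr5:135887669-135887968 on the plus strand and that of Hsph1 at chr5:149636266-149636565 on the minus strand.
Hspe1: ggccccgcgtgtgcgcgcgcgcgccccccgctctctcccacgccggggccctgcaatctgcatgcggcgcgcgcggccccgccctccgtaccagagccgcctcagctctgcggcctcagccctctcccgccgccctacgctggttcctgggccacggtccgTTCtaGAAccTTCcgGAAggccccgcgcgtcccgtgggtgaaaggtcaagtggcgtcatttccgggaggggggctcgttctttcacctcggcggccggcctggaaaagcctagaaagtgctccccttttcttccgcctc
Hspb1: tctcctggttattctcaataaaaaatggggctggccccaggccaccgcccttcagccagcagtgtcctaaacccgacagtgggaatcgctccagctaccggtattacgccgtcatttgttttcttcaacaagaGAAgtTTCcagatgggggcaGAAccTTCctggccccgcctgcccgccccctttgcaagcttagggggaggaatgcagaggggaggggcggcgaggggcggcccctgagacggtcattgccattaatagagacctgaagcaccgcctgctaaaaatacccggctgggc
Hsph1: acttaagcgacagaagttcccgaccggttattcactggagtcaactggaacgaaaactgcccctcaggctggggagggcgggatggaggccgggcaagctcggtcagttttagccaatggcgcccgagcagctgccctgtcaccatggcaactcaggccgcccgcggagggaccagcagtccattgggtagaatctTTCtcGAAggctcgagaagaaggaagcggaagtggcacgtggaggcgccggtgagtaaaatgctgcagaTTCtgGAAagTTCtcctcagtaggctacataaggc
Hspe1 and Hspd1 are transcribed in opposite directions, and for the Hspd1 window with the match the annotated starts lie 216 bases apart and the windows share 285 bases. Another Hspd1 window, at chr1:55088194-55088493 on the minus strand, held neither a 3-unit nor a 2-unit match. The capitals of the Hspe1 window, 89 to 72 bases before its start, are therefore the same DNA as the Hspd1 match, 144 to 127 bases before that start. A match describes the letters of a window and does not show that HSF1 was bound there.

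Values are log2 expression values from robust multiarray averaging (RMA), and a difference of 1 on this scale is a doubling. The Atf7 probe set 10433032 averaged 5.52 in Atf7-/- IVF livers and 5.96 in Atf7-/- natural mating livers, against 8.04 in WT IVF and 8.78 in WT natural mating livers (n = 3 each). The other Atf7 probe set differed by -0.34 between the natural mating groups (limma adjusted p = 0.0758), and where either lies in the gene was not analysed here. IVF in WT gave -0.74 on the first (SE 0.19, limma adjusted p = 0.0384) and -0.26 on the other (limma adjusted p = 0.19). The article reports no change of Atf7 mRNA, or of ATF7 protein on western blots, with IVF. Array medians lay between 6.22 and 6.34, and arrays of a group correlated at r = 0.980 to 0.990 over all probe sets. Of the 9 hepatocyte markers measured, the mean log2 level lay between 13.1 and 13.2 in every group, and 1, Hnf4a, was called in the comparisons below.

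A gene was called when limma, fitted across all 34760 probe sets with Benjamini-Hochberg adjustment, gave an adjusted p of at most 0.05 and the log2 difference was at least 0.6 in size. Where a gene had several probe sets, the one with the highest mean over the 12 arrays led. In Atf7-/- livers, IVF raised Hspe1 and lowered Hspb1, 2 of the 7 genes, where 3.27% of all probe sets were called higher and 3.51% lower. In WT livers IVF changed 0 of the 7 genes, against 2.85% of all probe sets higher and 1.67% lower. At adjusted p alone Hspe1 passed in WT, as did 8.62% of all probe sets. Among naturally conceived mice, Hspb1 was called higher in Atf7-/- than in WT, 1 of 7. There 3.83% of probe sets were higher and 3.67% lower. At adjusted p alone Hspe1 passed there too, as did 13.7% of probe sets. Between the IVF groups, Atf7-/- against WT, 0 of the 7 genes were called, where 0% of probe sets were called higher and 0.00575% lower. The difference between the IVF effects, Atf7-/- minus WT, was called for 0 of the 7 genes, against 2.72% of probe sets higher and 3.46% lower. Over probe sets with 1 symbol, the kind the members have, 2.74% were called higher and 3.86% lower for IVF in Atf7-/-. The shares were 3.34% and 1.06% for IVF in WT, and 4.26% and 2.3% for ATF7 loss in natural mating. For the difference between the IVF effects they were 1.72% and 4.14%. With 7 genes, nothing was read from the counts of called genes about the chaperones as a class. The median log2 difference of the 7 genes was 0.07 for IVF in Atf7-/- and 0.03 for IVF in WT, beside -0.0022 and -0.02 over all probe sets with 1 symbol. It was -0.10 for ATF7 loss in natural mating and -0.07 for ATF7 loss in IVF, beside 0.0012 and 0.00081. The comparisons share groups: the Atf7-/- natural mating arrays enter both IVF in Atf7-/- and ATF7 loss in natural mating, so opposite differences in those comparisons can rest on the same 3 arrays. The share of all probe sets on which these 3 arrays were the 3 highest or lowest of 12 was not analysed here. Such ranks are given below for single genes and are not read as a trait of chaperones.

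**Figure D1:**
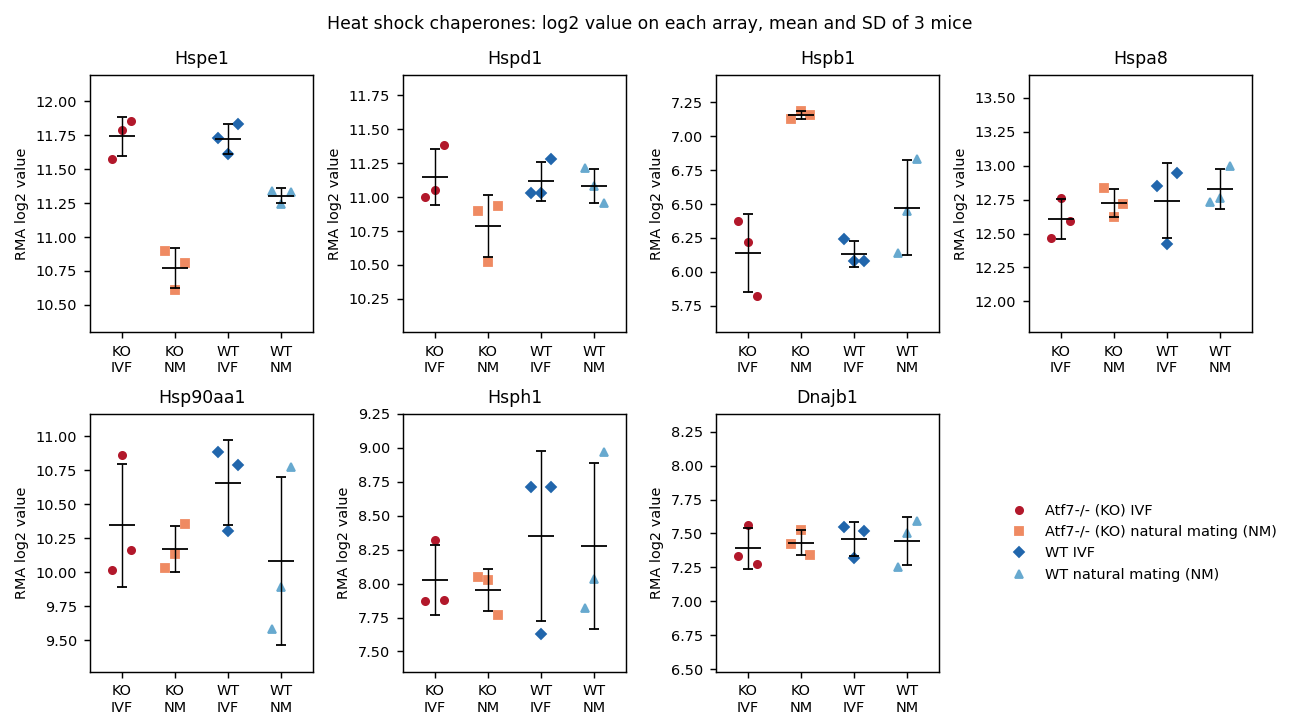
Log2 value of the leading probe set of each measured chaperone (y axis, RMA log2 value, each panel at least 1.9 log2 units high) on the 12 arrays, by group (x axis, KO for Atf7-/- and NM for natural mating). Points are mice and bars the mean and SD of 3 mice. For Hspe1 the Atf7-/- natural mating mice lie below all others and for Hspb1 above all others, while in Hsp90aa1 and Hsph1 mice of 1 group spread widely.

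Hspe1 encodes HSP10, the co-chaperonin that caps the HSP60 ring, the folding chamber of the mitochondrial matrix. Its leading probe set 10455588 read 11.58, 11.79 and 11.86 in Atf7-/- IVF livers, against 10.89, 10.61 and 10.81 in Atf7-/- natural mating livers. In WT mice it read 11.73, 11.61 and 11.83 after IVF, against 11.34, 11.24 and 11.33 after natural mating. Every IVF liver thus lay above every naturally conceived liver of either genotype, and the 3 Atf7-/- natural mating livers were the lowest of the 12. IVF raised Hspe1 in Atf7-/- by 0.97 log2 units (1.96-fold, SE 0.11, 95% interval 0.74 to 1.21, limma adjusted p = 0.000397). In WT the IVF difference was 0.42 (SE 0.11, interval 0.18 to 0.65, limma adjusted p = 0.0367), under the size needed for a call. Leaving out 1 array at a time kept the Atf7-/- call in 12 of 12 fits, with differences from 0.89 to 1.05. The IVF effect was 0.55 larger in Atf7-/- than in WT (SE 0.15, interval 0.22 to 0.89), which missed the threshold at a limma adjusted p of 0.0518. That difference passed without Atf7-/- IVF replicate 1 (0.64, limma adjusted p = 0.0352). Among naturally conceived mice, Hspe1 was 0.54 lower in Atf7-/- than in WT (SE 0.11, limma adjusted p = 0.00731), also under the size of a call. Between the IVF groups the difference was 0.02, with an interval from -0.22 to 0.25. In order of level, Atf7-/- IVF (11.74) and WT IVF (11.72) did not differ beyond their spread, WT natural mating (11.30) followed and Atf7-/- natural mating (10.77) was lowest.

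The second Hspe1 probe set, 10346303, followed the first over the 12 arrays (Pearson r = 0.916). It read 9.49, 9.71 and 9.80 in Atf7-/- IVF livers, against 9.15, 8.88 and 9.07 in Atf7-/- natural mating livers, again without overlap. It read 9.66, 9.65 and 9.85 in WT IVF livers, against 9.25, 9.28 and 9.78 in WT natural mating livers, where replicate 3 of natural mating lay among the IVF values. The IVF difference in Atf7-/- was 0.63 on this probe set (SE 0.15, limma adjusted p = 0.0177). That call ended without Atf7-/- natural mating replicate 2 or without Atf7-/- IVF replicate 2 or 3, at limma adjusted p-values from 0.0549 to 0.0746. The other comparisons were not called on it, with 0.28 for IVF in WT (limma adjusted p = 0.271) and -0.40 for ATF7 loss in natural mating (limma adjusted p = 0.105). Genes of this family have near-identical processed copies in the mouse genome, and the annotation gave the same RefSeq transcript for both probe sets without saying which copy each one reads. The leading probe set was picked for its level, so it need not be the one that reads the gene at the promoter window shown. For Hspd1 and the other members with several probe sets, which copy each one reads was likewise not analysed here.

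Hspd1 encodes HSP60 itself, and is the neighbour of Hspe1 across the shared promoter window. Its leading probe set read 11.00, 11.06 and 11.38 in Atf7-/- IVF livers, against 10.90, 10.53 and 10.93 in Atf7-/- natural mating livers. In WT it read 11.03, 11.03 and 11.28 after IVF, against 11.21, 11.08 and 10.96 after natural mating. The Atf7-/- IVF values stood above those of Atf7-/- natural mating without overlap, whereas the WT groups overlapped. The IVF difference in Atf7-/- was 0.36 (SE 0.14, interval 0.05 to 0.67) with a limma adjusted p of 0.132, and in WT it was 0.03 (interval -0.28 to 0.35). ATF7 loss in natural mating gave -0.30 (interval -0.61 to 0.02, limma adjusted p = 0.213) and ATF7 loss in IVF gave 0.03 (interval -0.28 to 0.34). The second Hspd1 probe set, 10354732, gave 0.32 for IVF in Atf7-/- and 0.37 for IVF in WT (limma adjusted p = 0.266 and 0.193), and 0.11 in place of -0.30 for ATF7 loss in natural mating. The 2 Hspd1 probe sets correlated at r = 0.71 over the arrays, and they differed in the sign of ATF7 loss in natural mating. Leading probe sets of Hspd1 and Hspe1 correlated at r = 0.777 over the 12 arrays, and at 0.779 once group means were removed. These correlations describe 12 arrays that share a normalization, and no p is attached to them.

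Hspb1 encodes HSP25, the mouse counterpart of human HSP27, a small heat shock protein that holds unfolded proteins soluble and binds actin filaments. Its leading probe set 10526410 read 6.38, 6.22 and 5.82 in Atf7-/- IVF livers, against 7.13, 7.19 and 7.15 in Atf7-/- natural mating livers. In WT it read 6.24, 6.08 and 6.08 after IVF, against 6.14, 6.45 and 6.83 after natural mating. The 3 Atf7-/- natural mating livers were above all other 9 livers and close to each other, while the WT natural mating livers spread over most of the remaining range. IVF lowered Hspb1 in Atf7-/- by 1.02 log2 units, to 0.494 of the natural mating level (SE 0.17, 95% interval of the log2 difference -1.40 to -0.63, limma adjusted p = 0.00359). This call held in 12 of 12 fits that left out 1 array, with differences from -1.13 to -0.86. The probe set was dim: Atf7-/- IVF averaged 6.14 and WT IVF 6.13, below the array medians of 6.22 to 6.34. Array background was not analysed here, so the fold may not give the true ratio. In WT the IVF difference was -0.34 (SE 0.17, interval -0.72 to 0.04, limma adjusted p = 0.259). Among naturally conceived mice Hspb1 was 0.68 log2 units higher in Atf7-/- than in WT (1.61-fold, SE 0.17, limma adjusted p = 0.0244). That call ended without any one of Atf7-/- natural mating replicates 1, 2 and 3 or WT natural mating replicates 1 and 2, at limma adjusted p-values from 0.0635 to 0.0780. Between the IVF groups the difference was 0.01 (interval -0.38 to 0.39). The IVF effect was lower in Atf7-/- than in WT by 0.68 (SE 0.25, limma adjusted p = 0.131), which did not pass, but passed without WT natural mating replicate 3 (-0.86, limma adjusted p = 0.036).

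On the second Hspb1 probe set, 10408928, the values were 6.16, 6.11 and 6.20 in Atf7-/- IVF livers, against 7.04, 7.22 and 7.26 in Atf7-/- natural mating livers. WT livers read 6.36, 5.88 and 5.86 after IVF, against 6.44, 6.63 and 6.50 after natural mating. Here the WT groups did not overlap either. Both calls of the leading probe set were made again, at -1.02 for IVF in Atf7-/- (SE 0.13, limma adjusted p = 0.000909) and 0.65 for ATF7 loss in natural mating (SE 0.13, limma adjusted p = 0.00815), and both held whichever array was left out. IVF in WT gave -0.49 (SE 0.13, limma adjusted p = 0.044), past the adjusted p but under the size of a call. By level, Atf7-/- natural mating was highest, WT natural mating second, and the IVF groups were lowest and did not differ beyond their spread.

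**Figure D2:**
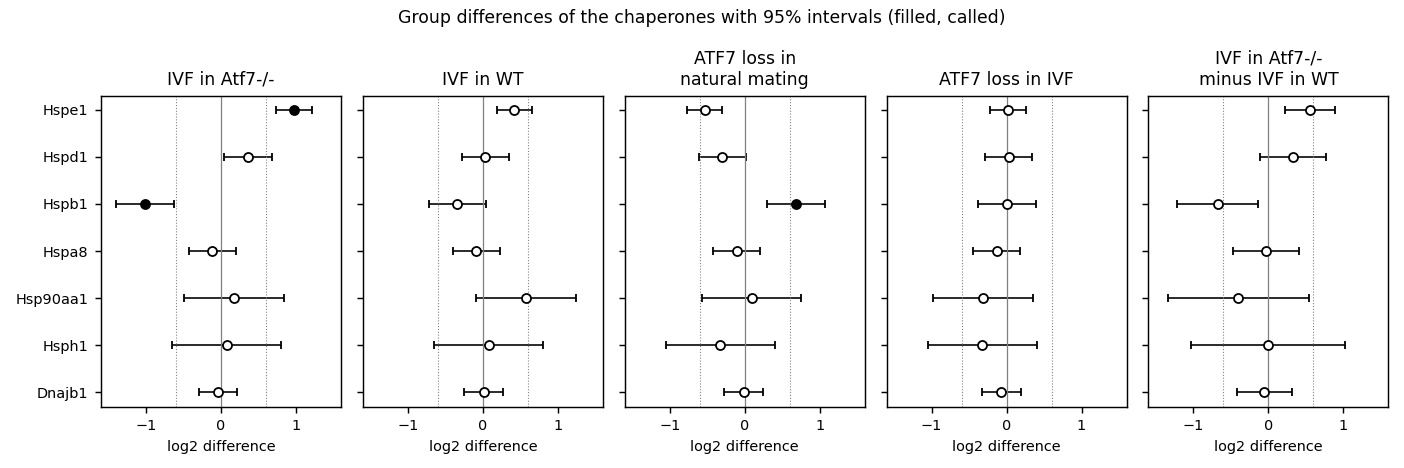
Log2 difference (x axis) of each measured chaperone (rows) in the 4 comparisons and in the difference of the IVF effects, Atf7-/- minus WT, on the leading probe sets. Points are limma estimates with 95% intervals, filled points are called, and dotted lines mark 0.6 either way. Hspe1 and Hspb1 are filled for IVF in Atf7-/- at 0.97 and -1.02, and Hspb1 for ATF7 loss in natural mating at 0.68.

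Hspa1a and Hspa1b encode the nearly identical stress-inducible HSP70 proteins, which are made at low levels until cells are stressed. The probe set that names both genes, 10450367, read 7.81, 7.84 and 7.75 in Atf7-/- IVF livers, against 8.68, 8.78 and 8.36 in Atf7-/- natural mating livers. In WT it read 7.95, 7.61 and 7.82 after IVF, against 7.76, 7.82 and 8.31 after natural mating. The Atf7-/- natural mating livers were again the 3 highest of the 12. IVF in Atf7-/- gave -0.81 (0.572-fold, SE 0.16, limma adjusted p = 0.0072), a call that held whichever array was left out. ATF7 loss in natural mating gave 0.65 (SE 0.16, limma adjusted p = 0.0206), a call that ended without Atf7-/- natural mating replicate 1 or 2 or WT natural mating replicate 1 or 2 (limma adjusted p from 0.0703 to 0.0803). IVF in WT gave -0.17 (interval -0.52 to 0.18) and ATF7 loss in IVF 0.01 (interval -0.34 to 0.36). The signals of Hspa1a and Hspa1b cannot be told apart on this probe set. The probe set of Hspa1a alone moved the same way by less, with -0.54 for IVF in Atf7-/- (SE 0.12, limma adjusted p = 0.0115) and 0.45 for ATF7 loss in natural mating (SE 0.12, limma adjusted p = 0.0264), both under the size of a call, although the first passed without Atf7-/- natural mating replicate 3 (-0.64, limma adjusted p = 0.0102). Over the 12 arrays Hspb1 correlated with Hspa1a at r = 0.86 and with Hspe1 at r = -0.912. With group means removed these fell to 0.261 and -0.346, so the relation lay mostly between the groups.

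Hspa8, Hsp90aa1, Hsph1 and Dnajb1, the chaperones of the cytosolic HSP70 and HSP90 systems, were called in none of the 4 comparisons and not in the difference of the IVF effects, on any of their 8 probe sets. Hspa8 encodes HSC70, the HSP70 that cells make at all times. Its leading probe set read 12.47, 12.76 and 12.59 in Atf7-/- IVF livers, 12.83, 12.62 and 12.72 in Atf7-/- natural mating livers, 12.85, 12.43 and 12.95 in WT IVF livers and 12.73, 12.76 and 13.00 in WT natural mating livers. All groups overlapped, and the 4 differences lay between -0.13 and -0.09, with intervals within -0.45 to 0.22. The second probe set of Hspa8 gave -0.40 for ATF7 loss in IVF (interval -0.79 to -0.0047, limma adjusted p = 0.81).

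Hsp90aa1 encodes the stress-inducible HSP90 alpha, which holds kinases and steroid receptors in a form ready for activation. It read 10.02, 10.86 and 10.16 in Atf7-/- IVF livers, against 10.03, 10.13 and 10.36 in Atf7-/- natural mating livers. In WT it read 10.88, 10.31 and 10.79 after IVF, against 9.58, 9.89 and 10.77 after natural mating. Only replicate 3 of WT natural mating stood among the WT IVF values. The IVF difference in WT was 0.58 (SE 0.30, interval -0.09 to 1.24, limma adjusted p = 0.266), and the other 2 probe sets gave 0.65 and 0.95 (limma adjusted p = 0.209 and 0.176). In Atf7-/- the IVF difference was 0.17 (interval -0.49 to 0.84). ATF7 loss gave 0.09 in natural mating (interval -0.57 to 0.76) and -0.31 in IVF (interval -0.98 to 0.35).

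Hsph1 encodes HSP105, an HSP110 protein that drives nucleotide exchange on HSP70, and was the most variable of these 4 genes within groups on the leading probe sets. It read 7.87, 8.32 and 7.88 in Atf7-/- IVF livers, against 8.05, 8.03 and 7.77 in Atf7-/- natural mating livers. In WT it read 8.71, 7.63 and 8.71 after IVF, against 7.82, 8.03 and 8.97 after natural mating. The lowest and the highest of the 12 livers were both WT, replicate 2 of IVF and replicate 3 of natural mating. The IVF differences were 0.07 in Atf7-/- and 0.08 in WT, both with an SE of 0.33, and ATF7 loss gave -0.32 in both natural mating and IVF (limma adjusted p = 0.604 and 0.922). Dnajb1 encodes HSP40, the J-domain partner that delivers unfolded proteins to HSP70. It read between 7.25 and 7.59 on all 12 arrays, with group means from 7.39 in Atf7-/- IVF to 7.46 in WT IVF. Its differences lay between -0.07 and 0.01 with intervals within -0.33 to 0.27.

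These 4 cytosolic genes varied together from mouse to mouse within groups. With group means removed, Hspa8 and Hsph1 correlated at r = 0.888, Hsp90aa1 and Hsph1 at 0.844, and Hsph1 and Dnajb1 at 0.83 over the 12 arrays. Their mean, each gene centred on its own mean over arrays, stood highest in WT natural mating replicate 3 (0.43 log2 units), WT IVF replicates 1 and 3 (0.34 each) and Atf7-/- IVF replicate 2 (0.22). It was lowest in WT natural mating replicate 1 (-0.31), WT IVF replicate 2 (-0.24) and Atf7-/- IVF replicate 1 (-0.23). High and low mice thus occurred in each group except Atf7-/- natural mating, whose 3 mice lay between -0.11 and -0.07. Over the 12 arrays Hspb1 correlated with Hspa8, Hsp90aa1, Hsph1 and Dnajb1 at 0.214, -0.085, 0.009 and 0.282, and at 0.279, 0.622, 0.591 and 0.665 with group means removed. Hspe1 correlated with the same 4 genes at -0.017, 0.415, 0.281 and -0.025, and at 0.708, 0.31, 0.362 and 0.017 with group means removed. Removing group means thus raised each of these values except that of Hspe1 with Hsp90aa1.

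**Figure D3:**
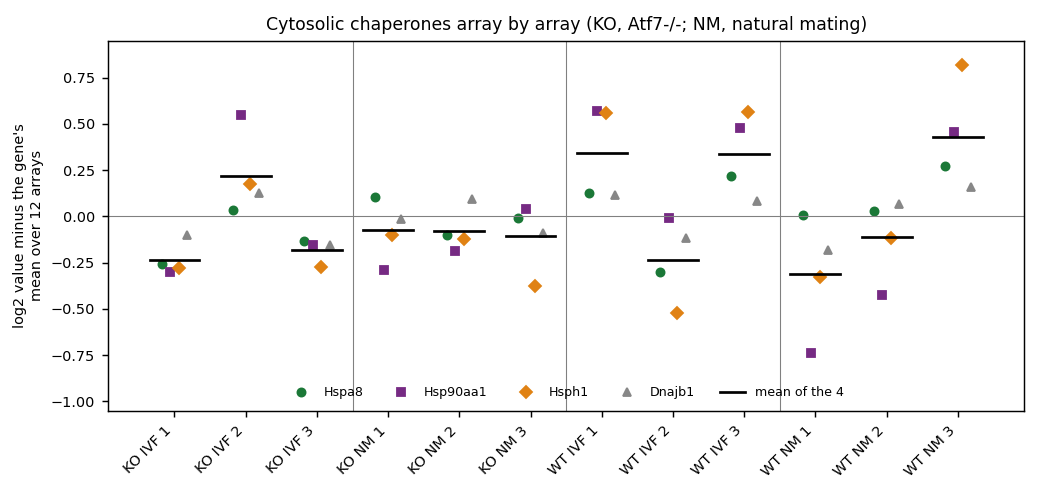
Log2 value of Hspa8, Hsp90aa1, Hsph1 and Dnajb1 minus each gene's mean over 12 arrays (y axis) on each array (x axis, KO for Atf7-/-, NM for natural mating), with a black bar for the mean of the 4 genes. The bars run from -0.31 in WT natural mating replicate 1 to 0.43 in WT natural mating replicate 3, within a single group.

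The genes most like this mean were taken by Pearson r over the 12 arrays among 21626 other probe sets with 1 symbol. They were Slc10a2 (0.97), Manf (0.94), Nme6 (0.939), Ubxn4 and Gemin6 (0.891 each), Nudt7 (0.888), Uso1 (0.886), Gmppb (0.882), Sec24d (0.878) and Heatr1 (0.875). With group means removed, Slc10a2, Nme6 and Manf were again among the 10 highest, at 0.978, 0.976 and 0.972, beside Tmem248, Sec22b, Sstr3, Sec23b, Srp68, Olfr62 and Srp9. Manf is a protein of the endoplasmic reticulum (ER), and Sec22b, Sec23b, Sec24d, Srp68 and Srp9 serve the secretory pathway. The highest of 21626 values over 12 arrays are high in part because they were picked, and no p is given. For Hspe1 alone, a comparison added after its values were seen, the highest were Mocs2 and Larp1b (0.978 each), Ces1c (0.977), Wapl (0.973), and the respiratory chain genes Ndufv2 and Atp5h (0.972 each). For Hspb1 alone, likewise added, they were Mus81 (0.963), Mpv17l2, Ccdc69 and Fcer1g (0.962 each).

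Chaperone genes outside the 10 were read on lists by role, 1 probe set per gene, and their calls stood against the same shares of all probe sets. Of 8 other small heat shock proteins, IVF in Atf7-/- lowered 1 and ATF7 loss in natural mating raised 2, with list medians of -0.01 and -0.05. Hspb6, which encodes HSP20, read 7.76, 7.87 and 7.51 in Atf7-/- IVF livers, against 9.41, 9.0 and 9.60 in Atf7-/- natural mating livers. Its WT levels were 7.84, 7.91 and 7.85 after IVF, against 7.75, 7.77 and 7.93 after natural mating. Only the Atf7-/- natural mating livers were high. For Hspb1 they were also the highest, by less, but there WT natural mating averaged above WT IVF. IVF in Atf7-/- gave -1.62 (SE 0.15, limma adjusted p = 0.000159) and ATF7 loss in natural mating gave 1.52 (SE 0.15, limma adjusted p = 0.000128). Cryab, which encodes alpha B-crystallin, read 7.94, 7.97 and 8.0 in Atf7-/- natural mating livers, against 6.84, 7.02 and 7.26 in WT natural mating livers (0.93, SE 0.12, limma adjusted p = 0.000716). Its IVF levels were 7.54, 7.46 and 7.29 in Atf7-/- and 7.43, 7.70 and 7.44 in WT livers, between those of the natural mating groups. All of these Hspb6 and Cryab calls held whichever array was left out.

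**Figure D4:**
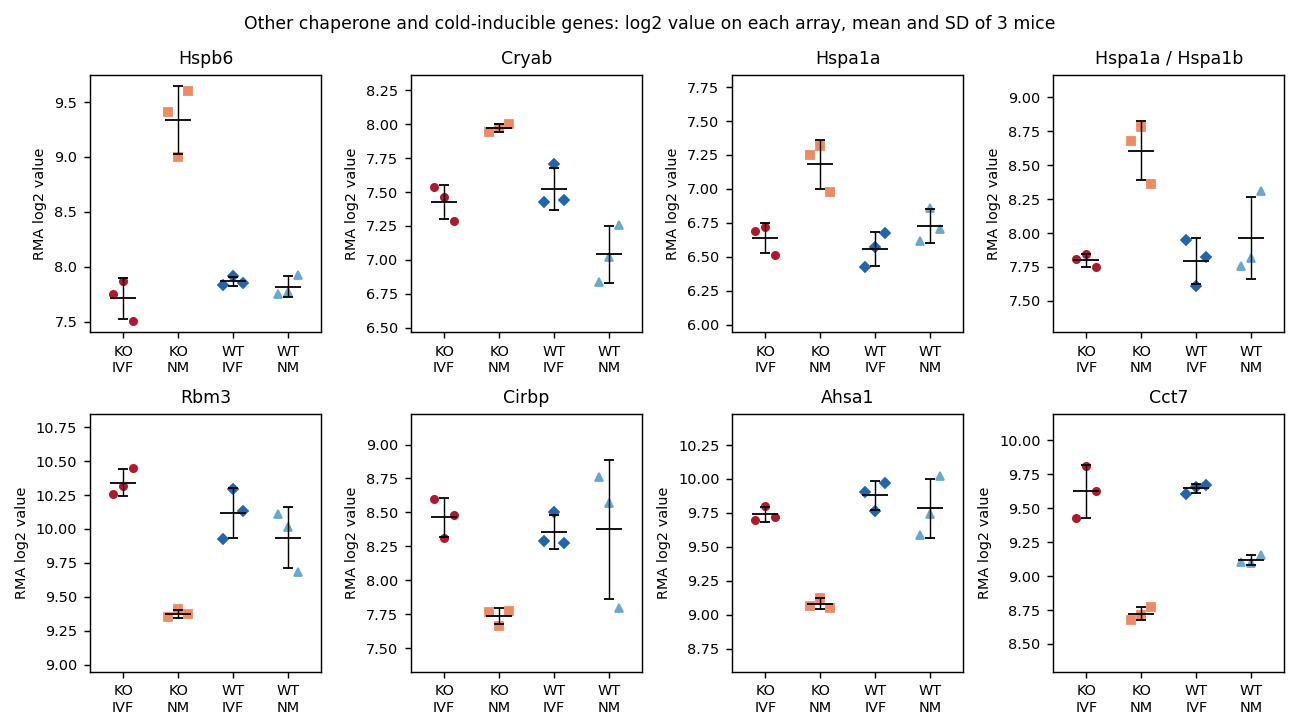
Log2 value (y axis, RMA) of 6 further chaperone or co-chaperone readings, including the probe set shared by Hspa1a and Hspa1b, and of the cold-inducible genes Rbm3 and Cirbp, on 12 arrays by group (x axis, KO for Atf7-/-, NM for natural mating). Points are mice and bars the mean and SD of 3 mice. The Atf7-/- natural mating mice are the highest of the 12 in the 4 upper panels, and the lowest in the 4 lower panels. The panels are a selection, and Clpx, Yme1l1 and Hspa13, also named in the text, lack these ranks. How often such ranks occur over all probe sets was not analysed here.

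Heat shock factors other than HSF1, with the HSF1-binding protein gene Hsbp1, gave 0 calls among 4 genes in each of the 4 comparisons. Among 14 cytosolic J-domain partners of HSP70, IVF in Atf7-/- raised Dnajb4 (0.71, SE 0.12, limma adjusted p = 0.00353) and Dnajc7 (0.65, SE 0.09, limma adjusted p = 0.00131), while 0 were called in the other 3 comparisons. Dnaja1, a main HSP70 partner, differed by 0.42 and 0.47 after IVF in Atf7-/- and WT without passing (limma adjusted p = 0.126 and 0.0992). Of 8 genes listed as nucleotide exchange factors and BAG proteins, IVF in Atf7-/- lowered Bag6 (-0.64, SE 0.11, limma adjusted p = 0.00388). The Bag6 call ended without Atf7-/- IVF replicate 2, where the difference was -0.60. Bag3, a classic HSF1 target, differed by -0.66 in that comparison (SE 0.20) with a limma adjusted p of 0.0565. It passed in 8 of the alternative fits, at limma adjusted p-values from 0.0119 to 0.0493: without WT natural mating replicate 1 or 3, on the compared groups alone, with array weights or median centring, and with dim or shared probe sets left out or probe sets averaged.

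Ahsa1, which speeds the ATPase of HSP90, was the 1 gene called among 15 HSP90 co-chaperones in these comparisons. It read 9.69, 9.80 and 9.72 in Atf7-/- IVF livers, 9.06, 9.13 and 9.05 in Atf7-/- natural mating livers, 9.91, 9.76 and 9.97 in WT IVF livers and 9.59, 9.74 and 10.02 in WT natural mating livers. The Atf7-/- natural mating livers were the 3 lowest of the 12, as for Hspe1. IVF in Atf7-/- gave 0.66 (SE 0.11, limma adjusted p = 0.00316) and ATF7 loss in natural mating gave -0.70 (SE 0.11, limma adjusted p = 0.00198). The second call ended without WT natural mating replicate 3, where the difference was -0.59.

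Beside Hspe1 and Hspd1, 12 mitochondrial chaperones and proteases were read. Clpx, the unfolding subunit of the ClpXP protease, was raised by IVF in both genotypes, by 1.24 in Atf7-/- and 1.51 in WT (limma adjusted p = 0.00206 and 0.00189), and the protease gene Yme1l1 by 0.81 in WT (limma adjusted p = 0.00612). Hspa9, the mitochondrial HSP70, was not called in any comparison, with differences from -0.26 to 0.20. In the cytosolic chaperonin TRiC and its partner prefoldin, 2 of 14 genes were raised by IVF in Atf7-/-, Cct7 by 0.90 (SE 0.10, limma adjusted p = 0.00036) and Cct5 by 0.64 (SE 0.09, limma adjusted p = 0.00117), the second not without Atf7-/- IVF replicate 2 (0.55). The list median was 0.32 for IVF in Atf7-/- and 0.31 for IVF in WT, where 0 of 14 were called. Among ER chaperones 1 of 15 rose after IVF in Atf7-/- and 2 after IVF in WT, and Hspa5, the ER HSP70, differed by 0.52 and 0.70 without passing (limma adjusted p = 0.219 and 0.108). In WT it passed with array weights (0.87, limma adjusted p = 0.0267) and without WT natural mating replicate 3 (1.01, limma adjusted p = 0.0146). Hspa13, an HSP70-like protein of microsomes, was the 1 of 10 other HSP70 and HSP110 genes called. IVF in WT raised it by 1.72 (SE 0.33, limma adjusted p = 0.0125).

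**Figure D5:**
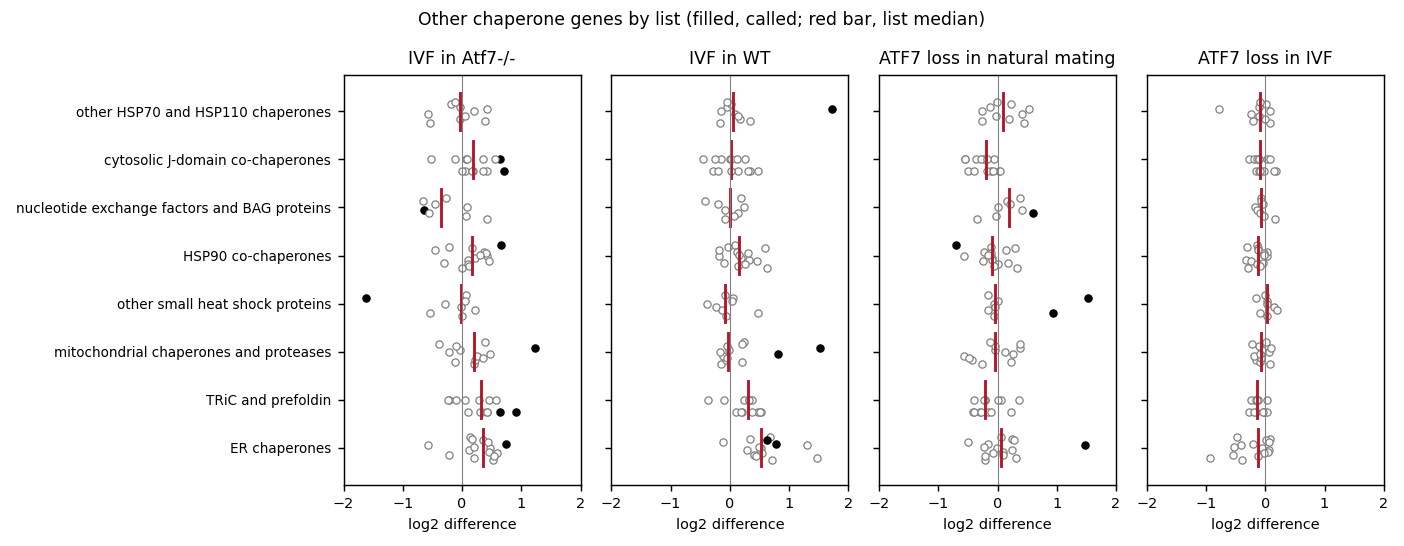
Log2 difference (x axis) of single chaperone genes outside the 10, by list (rows), in the 4 comparisons. Each point is a gene, filled where called, and the red bar is the list median. Filled points are few in every list, and Hspb6 stands farthest to the left for IVF in Atf7-/- at -1.62.

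Other genes also differed between these groups, not all in the pattern of Hspb1 and Hspe1, and their part in the chaperone values was not tested. The cold-inducible RNA-binding protein genes Rbm3 and Cirbp, which fall as body temperature rises, read lowest in the 3 Atf7-/- natural mating livers. Rbm3 read 10.26, 10.32 and 10.45 in Atf7-/- IVF livers, 9.35, 9.41 and 9.37 in Atf7-/- natural mating livers, 9.93, 10.29 and 10.14 in WT IVF livers and 10.11, 10.01 and 9.68 in WT natural mating livers. IVF in Atf7-/- raised Rbm3 by 0.96 (SE 0.13, limma adjusted p = 0.000921) and Cirbp by 0.73 (SE 0.20, limma adjusted p = 0.0373), the second call ending in 8 of 12 fits that left out 1 array (limma adjusted p up to 0.109). ATF7 loss in natural mating gave -0.56 for Rbm3 and -0.64 for Cirbp without a call (limma adjusted p = 0.0139 and 0.0613), and both passed without WT natural mating replicate 3 and with array weights. WT natural mating replicate 3, the highest array for the cytosolic chaperones, was the lowest of its group for both. The Atf7-/- natural mating livers, lower still for both genes, lay between -0.11 and -0.07 on the cytosolic mean. Atf7-/- IVF replicate 2, at 0.22 on that mean, was the middle of its group for Rbm3 and the lowest for Cirbp. A relation between these genes and the cytosolic chaperones was not tested. Of 14 clock genes, IVF raised 2 and lowered 5 in Atf7-/- and raised 3 and lowered 9 in WT, and ATF7 loss in natural mating raised 2 and lowered 5. Their median was -0.49 for IVF in Atf7-/-, -0.89 for IVF in WT and -0.42 for ATF7 loss in natural mating. Unlike Hspb1 and Hspe1, the clock list mean was most extreme in WT natural mating livers (8.46 to 8.53). It ranged from 8.01 to 8.31 in Atf7-/- natural mating livers. Of 18 immediate early genes, which respond to handling within minutes, IVF lowered 4 in Atf7-/- and 3 in WT, and ATF7 loss in natural mating raised 1 and lowered 1. Of all probe sets, 3.27% were called higher and 3.51% lower for IVF in Atf7-/-, and 2.85% and 1.67% for IVF in WT. For ATF7 loss in natural mating the shares were 3.83% and 3.67%. The hour of dissection is not given in the sources used here.

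Markers of other liver cells were set beside these values, since in whole liver more cells of a type and more RNA per cell cannot be told apart. Their calls stood against the shares of all probe sets given in the paragraph before. Hspb1, Hspb6 and Cryab are made in smooth muscle and other contractile cells as well as elsewhere. The mean level of 8 stellate cell markers ranged from 8.99 to 9.10 in Atf7-/- IVF, 8.75 to 9.12 in Atf7-/- natural mating, 8.82 to 9.09 in WT IVF and 8.25 to 8.60 in WT natural mating livers. The WT natural mating livers were the 3 lowest of the 12 on this mean, as they were for Cryab. ATF7 loss in natural mating, the comparison in which Hspb1, Hspb6 and Cryab rose, also raised 2 of the 8 markers, Acta2, smooth muscle actin, by 1.39 (limma adjusted p = 0.00369) and Pdgfrb by 0.89 (limma adjusted p = 0.00115). Acta2 averaged 8.59 in Atf7-/- IVF and 8.64 in Atf7-/- natural mating livers, against 8.09 in WT IVF and 7.25 in WT natural mating livers. IVF in Atf7-/- called 0 of the 8, with -0.05 for Acta2 (interval -0.59 to 0.49) and -0.31 for Pdgfrb (limma adjusted p = 0.14), and IVF in WT raised 1, Reln. The list median was 0.50 for IVF in WT and 0.38 for ATF7 loss in natural mating. In IVF in WT, Acta2 differed by 0.84 and Pdgfrb by 0.58 without a call (limma adjusted p = 0.0582 and 0.0205). Hspb1 differed by -0.34, Hspb6 by 0.05 and Cryab by 0.48 in that comparison. The part of these cells in the chaperone values was not tested. Hnf4a, a transcription factor of hepatocytes, was the 1 hepatocyte marker called. It read 10.94, 10.99 and 11.02 in Atf7-/- IVF livers, against 11.74, 11.69 and 11.78 in Atf7-/- natural mating livers. In WT it read 11.10, 10.95 and 11.09 after IVF, against 11.28, 11.14 and 10.76 after natural mating. The Atf7-/- natural mating livers were the 3 highest of the 12, as for Hspb1. Hnf4a differed by -0.76 for IVF in Atf7-/-, by 0.68 for ATF7 loss in natural mating and by -0.74 for the difference of the IVF effects (limma adjusted p = 0.00252, 0.0039 and 0.026). The 9 neutrophil and lymphocyte markers ranged from 5.81 to 6.08 in Atf7-/- IVF, 5.48 to 5.58 in Atf7-/- natural mating, 5.89 to 5.99 in WT IVF and 5.48 to 6.01 in WT natural mating livers. IVF in Atf7-/- raised 4 of them, S100a9, Ngp, Cd3g and Ms4a1, by 0.71 to 0.99, IVF in WT raised Ms4a1, and ATF7 loss in natural mating lowered S100a9 by 0.71. For IVF in Atf7-/- the 9 differences ran from -0.30, for Cd3e, to 0.99, with a median of 0.39. The means of this list lay below the array medians of 6.22 to 6.34, so these markers were dim. The 8 Kupffer cell and macrophage markers ranged from 8.88 to 9.11, 8.78 to 9.02, 9.0 to 9.06 and 8.97 to 9.71 in the same order of groups, and the 8 sinusoidal endothelial markers from 9.21 to 9.29, 9.21 to 9.55, 9.11 to 9.43 and 8.89 to 9.11. ATF7 loss in natural mating lowered 3 Kupffer cell markers, Clec4f, Marco and Cd5l, and raised Vsig4 and the endothelial marker Clec4g, while IVF in WT lowered Cd5l and raised Clec4g. Proliferation markers, 7 of them, ranged from 7.07 to 8.57, 7.33 to 8.42, 8.30 to 8.40 and 6.85 to 7.47. RMA values have no true zero, so absence of a marker cannot be read from them.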

How the data were processed

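The authors hybridised biotin-labelled target, prepared from total liver RNA, to Affymetrix Mouse Gene 1.0 ST arrays and normalized the scans by RMA in the R package affy. Their deposited log2 values, 34760 probe sets on each array, were used unchanged. For that step the sources used here give no tool version, filter or genome build. Symbols came from the platform annotation, which named 1 gene for 21640 probe sets, several for 1321 and none for 11799. Of those with 1 gene, 21553 matched RefSeq by Entrez identifier, and 0 symbols changed. The members and lists were chosen with earlier results of these data known.

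Group means were estimated with limma (3.58.1; R 4.3.3) with 8 residual degrees of freedom, empirical Bayes variances and Benjamini-Hochberg adjustment over all probe sets. A call required both thresholds of the study's methods, an adjusted p no greater than 0.05 and a log2 difference of 0.6 or more in size. This fit was first checked on simulated arrays. All listed members were named, with up to 4 called genes of each list, and Hspa1a, Dnaja1, Bag3, Hspa5, Cirbp and Rbm3 whatever their values. Hspa9, the cell markers and the genes most like Hspe1 and Hspb1 alone were picked for naming once values were known. The alternatives changed the arrays fitted, added a replicate block, an intensity trend with robust variances or array weights, centred or quantile-normalized the arrays again, filtered probe sets, moved the thresholds, averaged a gene's probe sets, and left out each array in turn. Precision is limited by the number of arrays, and array background was not analysed here. Figures were drawn with matplotlib 3.10.9.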

Additional observations from a re-analysis of the deposited data

Results flagged for a closer look

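For 7 of 103 genes on the chaperone and cold-inducible lists (6.8%) the IVF effect differed between the genotypes by a test of the difference itself (limma, interaction term, n = 3 per group), and for 0 of the 7 measured members. Of all probe sets, 2.72% were called higher and 3.46% lower in that test, so 3 higher and 4 lower of 103 lie near the background. For Hspb6 the IVF effect was -1.62 in Atf7-/- and 0.05 in WT, a difference of -1.67 (SE 0.21, limma adjusted p = 0.00149). For Cryab it was -0.54 in Atf7-/- and 0.48 in WT, a difference of -1.03 (SE 0.17, limma adjusted p = 0.00646). Both held whichever array was left out. Hspbp1, a nucleotide exchange factor of HSP70, differed by -0.70 (limma adjusted p = 0.0206), a call that ended without Atf7-/- natural mating replicate 3 (limma adjusted p = 0.0559), without Atf7-/- IVF replicate 3 (limma adjusted p = 0.0519) or without WT natural mating replicate 3 (a difference of -0.59, under the size of a call). Dnajc7 differed by 0.63 (limma adjusted p = 0.0159), under the size of a call without WT natural mating replicate 1 or WT IVF replicate 1. Rbm3 differed by 0.78 (limma adjusted p = 0.0259), Cdc37, an HSP90 co-chaperone for kinases, by 0.61 (limma adjusted p = 0.04) and Hsbp1 by -0.60 (limma adjusted p = 0.0378). These 3 calls ended in 8, 9 and 10 of 12 fits that left out 1 array, at limma adjusted p-values up to 0.0662, 0.0946 and 0.0893.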

How the results depend on the processing

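The counts of called members were 2 for IVF in Atf7-/-, 0 for IVF in WT, 1 for ATF7 loss in natural mating, 0 for ATF7 loss in IVF and 0 for the difference between the IVF effects. Fitted on the compared groups alone, ATF7 loss gave 0 (Hspb1, limma adjusted p = 0.0561). Adjusted p alone gave 2 for ATF7 loss and 1 for IVF in WT, through Hspe1. A log2 difference of at least 1 left 1 for IVF in Atf7-/- (Hspb1) and 0 for ATF7 loss. The difference between the IVF effects became 1 with array weights (Hspb1), with a second quantile normalization (Hspe1) and with the probe sets of each gene averaged (Hspb1). Leaving out 1 array at a time, the ATF7 loss count ranged from 0 to 1, the count for the difference between the IVF effects from 0 to 1, and the other counts did not move. The cause of these changes was not tested. Over all alternatives for single members, 659 of 728 values kept their direction and their side of the threshold, 6 lost a call, 5 gained one, and 58 uncalled values changed sign. For the list genes and further probe sets named, 1125 of 1262 kept both, 103 lost a call, 21 gained one and 13 uncalled values changed sign. Median centring shifted the median of all probe sets by at most 0.08. Array signal over background was not analysed here, so no member was judged absent.

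The replicate numbers are shared by the groups, but do not pair the mice. Of 18 same-numbered pairs of arrays, 3 deviated from their group means together at r above 0.1 (range -0.124 to 0.239), and 5 of 12 arrays correlated best with their own number. With the replicate number as a block, the counts of called members were 2, 0, 1, 0 and 0, and no call of a named gene changed.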

Other observations

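Some list genes passed in comparisons not described above. Hspbp1 was 0.60 higher in Atf7-/- than in WT among naturally conceived mice (limma adjusted p = 0.00403), a call that ended without Atf7-/- natural mating replicate 2 or 3 or WT natural mating replicate 3. Cacybp, a heat-inducible partner of ubiquitin ligases, was raised by IVF in WT by 0.90 (SE 0.21, limma adjusted p = 0.0278), and the call ended in 4 of 12 fits that left out 1 array. Among ER chaperones Dnajb11 differed by 0.74 after IVF in Atf7-/- and by 0.79 in WT, Pdia4 by 0.62 after IVF in WT and Sdf2l1 by 1.47 with ATF7 loss in natural mating (limma adjusted p = 0.0449, 0.0456, 0.0451 and 0.0218). These calls ended in 10, 9, 9 and 5 of 12 such fits.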
